A study of Mus musculus with 2 samples.

Results

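The 10 genes described here are inducible defence and acute-phase genes of the gut lining: Reg3b, Reg3g, Saa1, Saa2, Saa3, Lcn2, Dmbt1, Duox2, Duoxa2 and Hp. They were chosen by name, not by their values, and all 10 were found among the 32285 genes of both count matrices. Single cells came from tumours of the mouse intestine and were profiled on the 10x Genomics platform. Both groups of mice carried floxed Mtch2 alleles and received AOM-DSS, a carcinogen (azoxymethane) followed by a colon irritant (dextran sulphate sodium). The group called WT was Mtch2fl/fl without Cre, and the group called cKO was Mtch2fl/fl VilCre, in which the villin promoter drives Cre in intestinal epithelium. Neither the age nor the number of mice is given in the sources used here. Tumours were pooled within each genotype. With 1 library per genotype, every difference below is a difference between 2 libraries. No test between genotypes exists, and each 95% interval covers counting error only.

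The WT library held 9445 barcodes with 116066712 unique molecular identifiers (UMIs, each standing for a captured transcript), and the cKO library held 6723 barcodes with 97364087. Filters kept 7245 cells from WT and 4388 from cKO, and 3193 and 2094 of them fell in 10 epithelial-like clusters with median depths of 18705 and 25290.5 UMIs. Clusters that could not be named held 38.5% of WT and 12.5% of cKO cells, mostly shallow barcodes. Mtch2, the targeted gene, stood at 93.7 UMIs per 1000000 UMIs in WT and 23.5 in cKO epithelial-like cells. The libraries shared 22 barcodes, of which 14 were kept. By Xist and Y-linked transcripts both pools held cells of both sexes: 981 WT and 324 cKO epithelial-like cells were assigned female, and 1164 and 1178 male.

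The intestinal lining answers microbes and wounding with secreted proteins that are low at rest and induced by cytokines. Interleukin-22 and interleukin-17A from lymphocytes act through STAT3 and NF-kB in epithelial cells, and interleukin-6, interleukin-1 and TNF drive the related acute-phase response in liver and other tissues. Reg3b and Reg3g encode C-type lectins that kill bacteria. Saa1, Saa2 and Saa3 encode serum amyloid A proteins, retinol-binding acute-phase proteins, and Hp encodes haptoglobin, which binds free haemoglobin. Lcn2 encodes lipocalin 2, which withholds iron by binding bacterial siderophores. Dmbt1 encodes a mucin-like scavenger receptor protein that binds bacteria. Duox2 encodes a dual oxidase that releases hydrogen peroxide at the apical surface, and Duoxa2 encodes the maturation factor it needs to leave the endoplasmic reticulum.

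The 3 serum amyloid A genes are neighbours on mouse chromosome 7 (GRCm38 coordinates): Saa3 at chr7:46711998-46715700 and Saa1 at chr7:46740497-46742980 lie on the minus strand, and Saa2 at chr7:46751790-46754313 lies on the plus strand. The starts of Saa1 and Saa2 are 8810 bases apart. Their upstream sequences are shown because Saa1 and Saa2 differ little there and yet were captured at very different levels. Each line runs 5′ to 3′ from base -250 to base -51 of the RefSeq start (GRCm38.p6), with the bases that match the C/EBP motif TTGCNNAA on either strand in capitals. The windows are chr7:46743031-46743230, minus strand, for Saa1, chr7:46751583-46751782, plus strand, for Saa2 and chr7:46715727-46715926, minus strand, for Saa3.
Saa1: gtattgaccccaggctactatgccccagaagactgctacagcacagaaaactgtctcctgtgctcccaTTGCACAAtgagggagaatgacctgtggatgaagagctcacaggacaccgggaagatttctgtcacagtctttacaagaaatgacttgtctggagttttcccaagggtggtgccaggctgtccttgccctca
Saa2: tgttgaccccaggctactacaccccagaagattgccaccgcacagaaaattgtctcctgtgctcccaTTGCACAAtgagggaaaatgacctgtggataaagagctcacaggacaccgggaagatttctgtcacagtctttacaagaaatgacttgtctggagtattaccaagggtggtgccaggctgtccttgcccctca
Saa3: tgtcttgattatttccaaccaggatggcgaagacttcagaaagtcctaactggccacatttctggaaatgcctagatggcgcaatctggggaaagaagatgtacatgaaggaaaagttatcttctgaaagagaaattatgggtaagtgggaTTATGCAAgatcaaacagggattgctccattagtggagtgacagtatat
Saa1 and Saa2 were identical at 188 of 201 aligned columns (93.5%), against 125 of 239 (52.3%) for Saa1 and Saa3. The C/EBP letters were found at -182, -183 and -99. RefSeq windows were matched for 8 of the 10 genes. Lcn2 also held the C/EBP letters, which makes 4 of 8 against 8.11% of all 32851 windows of this length. The Saa1 and Saa2 matches, in windows that are 93.5% identical, are not independent of each other. The NF-kB letters, GGGA and after any 4 bases CC, were found for Reg3g alone (13.8% of all windows), and the STAT letters TTCNNNGAA for Reg3b alone (5.76%), on either strand. No match overlapped another, and the Reg3b, Duox2 and Lcn2 windows lie partly or wholly inside the gene as GENCODE M21 draws it. A match of letters is a description and not a binding site.

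Levels by cell class split the 10 genes. A level is the UMIs of a gene per 1000000 UMIs of the cells summed (CPM), not scaled by transcript length. Reg3b, Reg3g, Saa1, Dmbt1, Duox2 and Duoxa2 were mainly epithelial in both libraries, and Saa3 and Hp lay almost wholly outside the epithelium. Lcn2 was shared by epithelial-like cells, neutrophil-like cells and endothelial-like cells. It also stood at 200 (WT) and 88.1 (cKO) CPM in fibroblast-like cells and at 112 and 21.8 in mast cell and basophil-like cells. Dmbt1 stood at 573 (WT) and 785 (cKO) CPM in epithelial-like cells and at 129 and 132 in T and B cell-like cells together. Saa1 stood at 205 and 373 in epithelial-like cells and at 54.1 and 42.8 in the lymphocytes, cells that are not known to make it. The lymphocyte values may be left by free RNA, which was not measured directly. In the lymphocytes Dmbt1 was level between the libraries and Saa1 was lower in cKO. These values do not hold for every class. In WT, Saa1 stood at 29.7 in macrophage and monocyte-like cells and 67.5 in mast cell and basophil-like cells, and Dmbt1 at 76.3 and 332. High levels were also found in the small erythroid-like class. Its 49 WT cells held Dmbt1 at 691, Duox2 at 216 and Duoxa2 at 270 CPM, above the WT epithelial-like cells. Its 17 cKO cells held 76.1, 32.6 and 10.9, from 7, 3 and 1 UMIs. This class also carried epithelial markers, with a score of 1.75, above the midpoint used to name epithelial-like clusters. Whether erythroid cells made these transcripts was not tested.

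**Figure D1:**
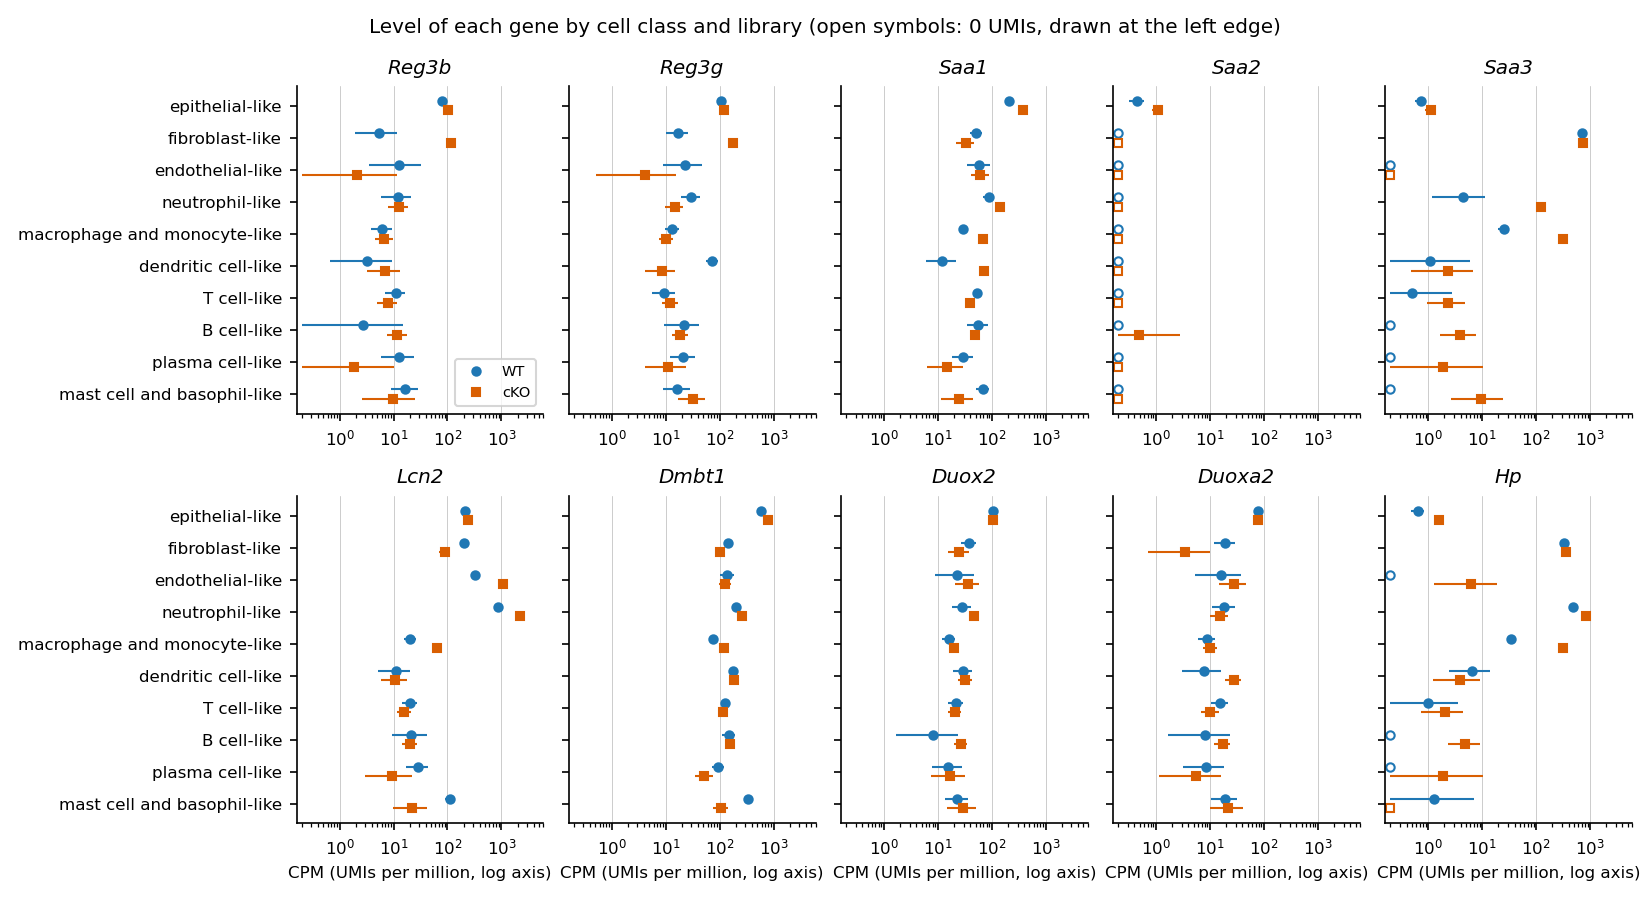
Summed CPM (horizontal log axis) of each of the 10 genes in 10 marker-named cell classes (vertical axis); circles are the WT and squares the cKO library, lines are exact Poisson 95% intervals, and open symbols mark 0 UMIs. Saa3 and Hp sit near 1 in epithelial-like cells and above 300 in fibroblast-like cells, which in WT rests on 1 cell that holds 702 of 809 Saa3 and 341 of 369 Hp UMIs. Among the classes drawn, Saa1 and Dmbt1 are highest in epithelial-like cells.

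Saa2 was close to absent. It gave 41 UMIs in WT and 77 in cKO epithelial-like cells, or 0.439 and 1.09 CPM, and no UMI in T cell-like, neutrophil-like or macrophage and monocyte-like cells of either library. In the least deeply summed of these, WT neutrophil-like cells, 0 UMIs allow up to 3.27 CPM. Of the 77 cKO UMIs, 25 came from 1 cell. Reads of Saa1 and Saa2 can in principle be confused: the last 500 transcript bases were 92.6% identical, but none of 411 windows of 90 bases there was shared by both genes. Saa3 and Hp were as sparse in epithelial-like cells, at 0.728 and 1.11 CPM for Saa3 and at 0.642 and 1.61 for Hp. All 3 lay under the 10 CPM required for a gene to be called measured in a class, and no ratio between the genotypes is read from them there.

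Among the 10 epithelial-like clusters, formed without the 10 genes, Saa1, Dmbt1, Duox2 and Duoxa2 were highest in clusters of the absorptive surface. Cluster 3 (378 WT and 326 cKO cells, shallow, with absorptive colonocyte and surface markers), cluster 7 (261 and 146 cells, surface and regenerative markers with Krt20 and Ly6m) and cluster 14 (125 and 132 cells, absorptive colonocyte markers with Aqp4 and Muc3) are called surface-type clusters below. Of the epithelial-like cells, 23.9% in WT and 28.8% in cKO lay there. The same clusters held 89.6% and 94.3% of the epithelial UMIs of Saa1, 82.5% and 83.3% of those of Dmbt1, 61.6% and 69.2% of those of Duox2, and 67.9% and 72.8% of those of Duoxa2. In WT, Saa1 stood at 1033, 1013 and 334 CPM in clusters 3, 7 and 14 and at 16.7 in the stem-type cluster 1 and 17.0 in the mitotic cluster 4, the lowest. The surface-type clusters thus stood apart from all others for this gene. Dmbt1 ran from 48.8 in cluster 1 to 2699 in cluster 14. Duox2 ran from 20.6 in cluster 1 to 687 in cluster 3. Duoxa2 was highest in clusters 3 (417) and 7 (283) but at 57.3 in cluster 14, below the 77.7 of cluster 6. The intervals of Saa1 in WT clusters 3 and 7 overlapped, so the order of these 2 is not resolved by counting.

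**Figure D2:**
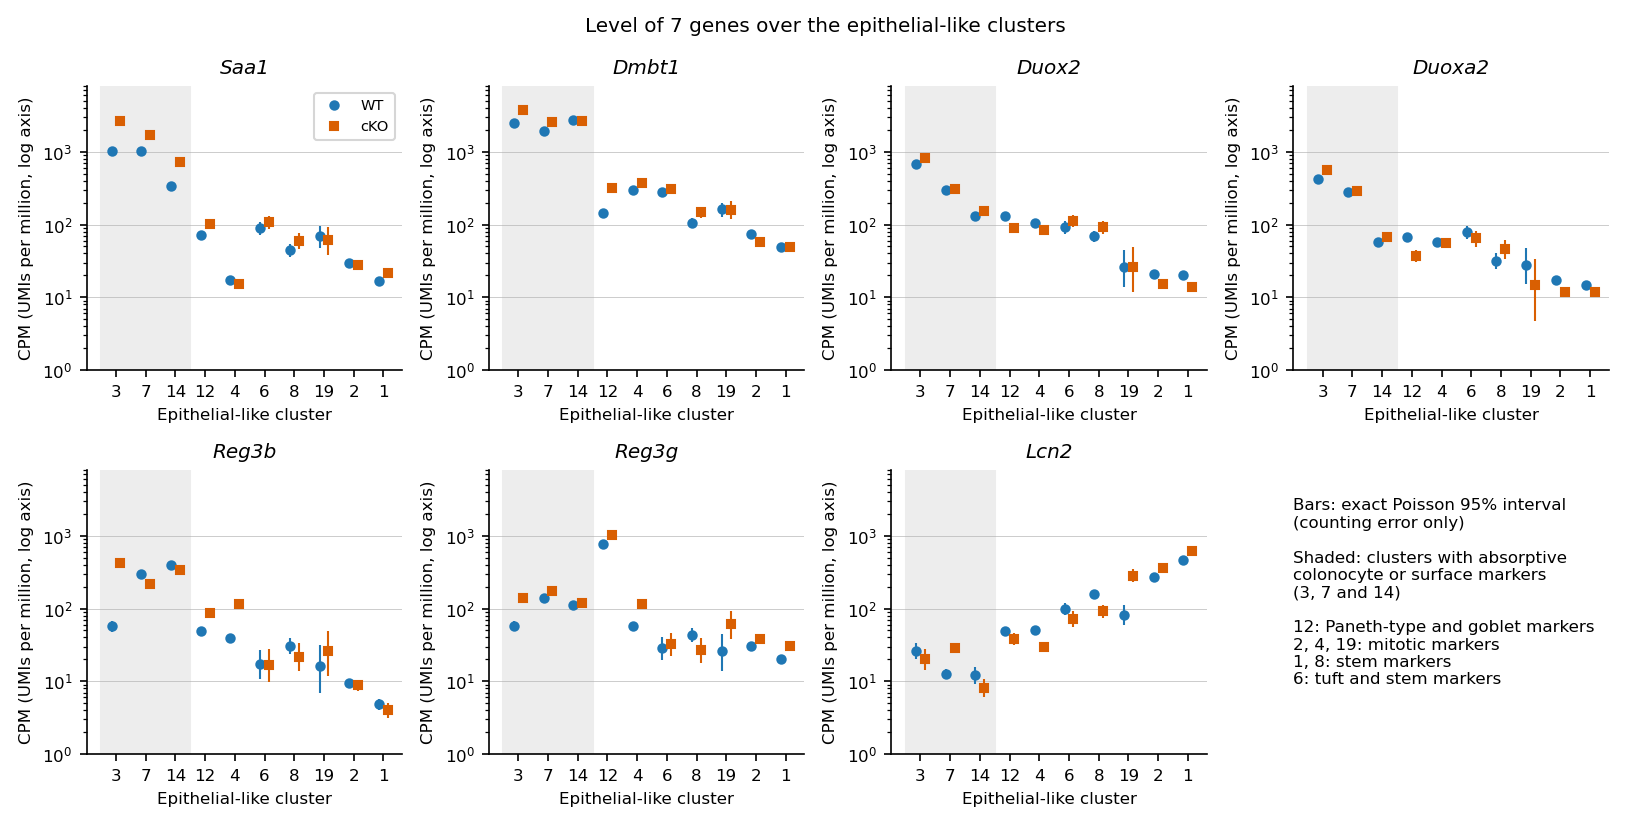
Summed CPM (vertical log axis) of 7 genes in the 10 epithelial-like clusters (horizontal axis, shaded for the surface-type clusters 3, 7 and 14); circles are WT, squares cKO, and lines exact Poisson 95% intervals. Saa1 reaches 2656 in cKO cluster 3, Reg3g is highest in cluster 12, and Lcn2 climbs in the opposite order, to 464 in WT and 612 in cKO cluster 1.

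Reg3b and Reg3g, close relatives, had different homes. Reg3b was highest in WT in clusters 14 (395 CPM) and 7 (299). In cKO it was highest in cluster 3 (423), where 1 cell held 464 of 792 UMIs; without the highest cell of each cluster, cluster 14 (285) was above cluster 3 (183). Reg3g was highest in cluster 12, a cluster with Paneth-type and goblet markers (Lyz1, Defa24, Spink4), at 762 in WT and 1013 in cKO. Cluster 12 held 6.6% of WT epithelial-like cells and 51.3% of the Reg3g UMIs of the WT epithelium. In cKO it held 3.7% of the cells and 34.0% of the Reg3g UMIs. Of those 2905 cKO UMIs, 1690 came from 1 cell, while clusters 4 and 7 held 1895 and 1603. The level of cluster 12 without its highest cell is given below.

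Over clusters, Lcn2 ran against the other measured members. It was highest in cluster 1, which carries stem markers and Npy, at 464 (WT) and 612 (cKO) CPM, and next in the mitotic cluster 2 in both libraries, at 269 and 364. Cluster 14 was lowest, at 12.2 and 8.11, close in WT to the 12.5 of cluster 7. Clusters 1 and 2 held 90.1% of WT and 93.0% of cKO epithelial Lcn2 UMIs, whereas the surface-type clusters held 1.4% and 2.0%. Over the 20 points made of 10 clusters in 2 libraries, the Pearson correlation of log2(CPM + 1) was -0.90 between Lcn2 and Dmbt1 and -0.92 between Lcn2 and Reg3b. The strongest positive pair was Duox2 with Duoxa2, at 0.97, whose starts lie 451 bases apart on opposite strands. Clusters of 1 library share its depth and free RNA, so these correlations are a description.

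**Figure D3:**
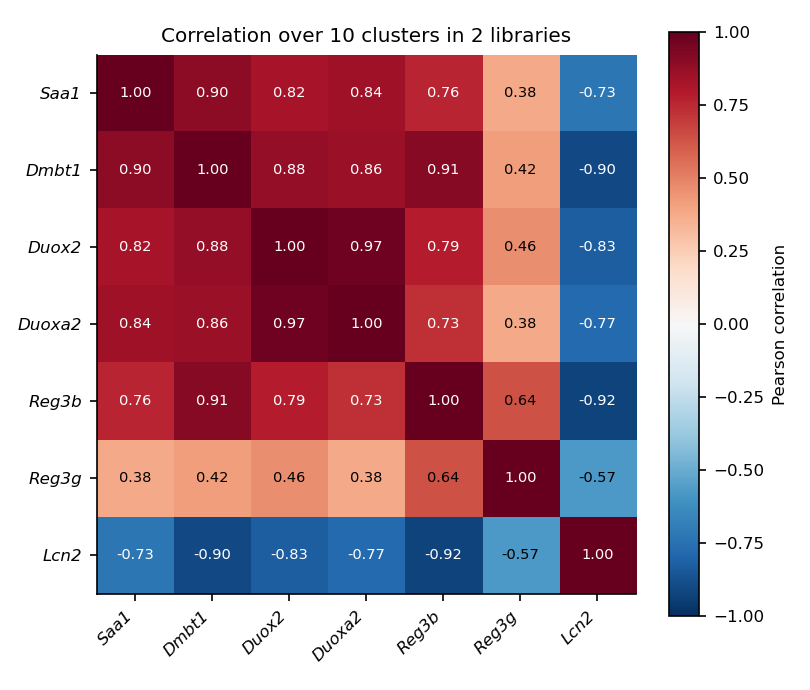
Pearson correlation of log2(CPM + 1) between 7 genes (both axes) over 20 points, the 10 epithelial-like clusters in each library. Saa1, Dmbt1, Duox2, Duoxa2 and Reg3b correlate positively with each other, from 0.73 to 0.97, Reg3g correlates less, and Lcn2 is negative with all 6 others.

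Among all 9397 genes measured in epithelial-like cells, those most like Saa1 over the same 20 points were Clca4b (0.958), Pde9a (0.956) and Clca4a (0.944). Dmbt1 was most like Cd38 (0.985), Naip1 (0.976) and Tmem236 (0.975). Lcn2 was most like Tmem173 (0.956), Lamp2 (0.953) and Etv5 (0.952). After Duoxa2, Duox2 was most like Hs3st1 (0.959) and Lrrc66 (0.954), and after Duox2, Duoxa2 was most like Myo15b (0.955) and Ehbp1l1 (0.955). Reg3b was most like Ctsc (0.932), Prss32 (0.931) and 2610528A11Rik (0.928), and Reg3g was most like Wars (0.918), Tpd52 (0.917) and Agr2 (0.866).

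Over the epithelium as a whole, a minority of cells held most UMIs of a gene. With every cell thinned to 3000 UMIs, which left 2760 WT and 1655 cKO epithelial-like cells, the tenth of cells with most UMIs of a gene held 89.1% and 92.8% of Saa1, 80.3% and 82.9% of Lcn2 and 63.2% and 62.3% of Dmbt1. The same share in all UMIs, unthinned, was 91.5% and 94.9% for Saa1, 76.3% and 75.7% for Dmbt1, 98.6% and 98.1% for Reg3b and 94.6% and 96.4% for Reg3g. These shares include the differences between clusters given above. A single WT cell of cluster 7 held 1762 of the 7246 Reg3b UMIs of the WT epithelium, and a single cKO cell of cluster 4 held 1232 of 7215. For Reg3g, a single cKO cell of cluster 12 held 1690 of 8547 UMIs.

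Shares of cells say less than levels here. At 3000 UMIs, Saa1 was seen in 19.2% (exact interval 17.8 to 20.8) of epithelial-like cells in WT and 20.8% (18.9 to 22.8) in cKO, and in 16.6% and 14.3% of T cell-like cells. Dmbt1 was seen in 43.8% and 43.4% of epithelial-like and 36.2% and 29.8% of T cell-like cells. The T cell-like shares may be left by free RNA, whose level was not measured directly, and how much of the epithelial shares such RNA makes up was not tested. Duox2 stood further above its T cell-like share, at 24.0% and 24.2% against 7.23% and 6.43%. Reg3b, at 4.67% and 5.56% against 3.40% and 2.63%, stood closer to it. Unthinned, 46.6% of epithelial-like cells in WT and 50.4% in cKO held Saa1.

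Cells rich in Saa1, Dmbt1, Duox2 or Duoxa2 tended to hold the others of these genes, and Reg3b followed them weakly. The Spearman correlation over epithelial-like cells at 3000 UMIs was 0.41 in WT and 0.49 in cKO for Saa1 with Dmbt1, and 0.40 and 0.44 for Duox2 with Duoxa2. It was 0.30 and 0.38 for Reg3b with Reg3g. For Reg3b it was lower with Saa1 (0.04 and 0.05), Duox2 (0.07 and 0.05), Duoxa2 (0.07 and 0.06) and Dmbt1 (0.07 and 0.13), unlike over clusters. Between Lcn2 and Dmbt1 it was -0.21 and -0.23, but -0.05 and 0.01 with all UMIs, unthinned. At 3000 UMIs, Lcn2 gave -0.10 and -0.13 with Saa1, -0.03 and -0.02 with Reg3b, and 0.007 and 0.014 with Reg3g. These are sparse counts over 2760 and 1655 cells that share a library, and the values only describe them.

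Of the 7 members measured in epithelial-like cells, Saa1 alone differed by at least 1.5-fold between the genotypes, upward in cKO. At that threshold 0.851% of all 9397 measured genes were higher in cKO and 1.1% lower. Saa1 stood at 205 CPM (19116 UMIs) in WT and 373 (26431 UMIs) in cKO, a log2 ratio of 0.86 (0.84 to 0.89). Dmbt1 was next, at 573 and 785, with a log2 ratio of 0.45 (0.44 to 0.47). Reg3b stood at 77.5 and 102, with a log2 ratio of 0.39 (0.34 to 0.44). Lcn2 (211 and 245, log2 ratio 0.22, 0.19 to 0.25) and Reg3g (104 and 120, log2 ratio 0.21, 0.17 to 0.26) were a little higher in cKO. Saa1, Dmbt1, Reg3b, Lcn2 and Reg3g were each above their WT level by more than counting error. Duox2 was level at 108 and 107 CPM, and Duoxa2 at 77.9 and 79.1. Their log2 ratios were -0.01 (-0.06 to 0.03) and 0.02 (-0.03 to 0.07). The median log2 ratio of the 7 was 0.22, beside -0.02 over all measured genes.

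The sexes of the cells did not give the same ratios. Saa1 was 212 in WT and 417 in cKO cells assigned male, a log2 ratio of 0.98 (0.94 to 1.01), but 240 and 276 in cells assigned female, a log2 ratio of 0.20 (0.13 to 0.27), which is under 1.5-fold. Dmbt1 was higher in cKO in both, by 0.46 in female and 0.57 in male cells on the log2 scale. Reg3b was 58.9 in WT and 129 in cKO female cells but 89.3 and 71.7 in male cells. Reg3g went the same way, at 53.0 and 137 in female and 129 and 115 in male cells. With all cells counted, the 2 lectin genes were thus higher in cKO in female cells only. Lcn2 was opposite to these, lower in cKO female cells (233 and 129) and higher in cKO male cells (225 and 284). Saa1 and Dmbt1 were thus the members of the 7 whose direction was shared by both sexes. Each sex is itself 1 pool per genotype, and the part of single animals or single cells in these ratios was not tested. For Reg3b, 1 WT cell held 1762 of 7246 epithelial UMIs and 1 cKO cell 1232 of 7215. For Reg3g, 1 cKO cell held 1690 of 8547. Which sex these cells were assigned was not examined.

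**Figure D4:**
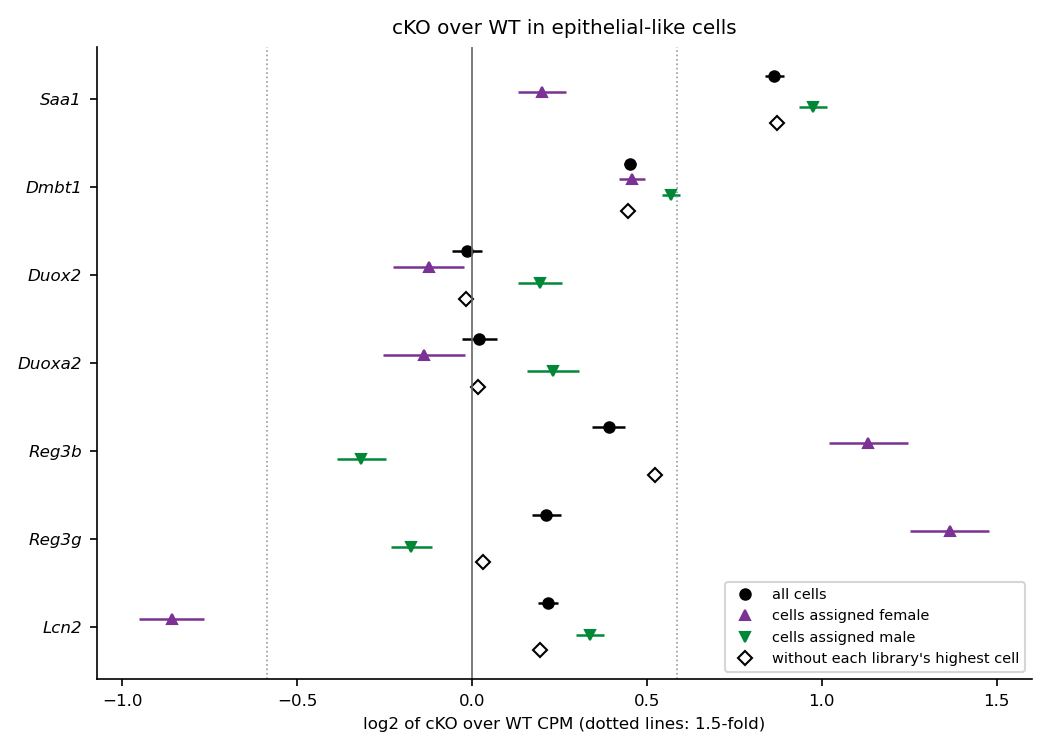
Log2 of cKO over WT CPM (horizontal axis) for 7 genes in epithelial-like cells: filled circles all cells, triangles cells assigned female or male, open diamonds all cells less the highest cell of each library; lines are 95% counting intervals and dotted lines 1.5-fold. Saa1 is right of the 1.5-fold line in all cells and in male cells (0.98) but not in female cells (0.20), and Reg3b, Reg3g and Lcn2 change side with sex.

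The Saa1 difference was seen in each surface-type cluster. Saa1 stood at 1033 CPM in WT and 2656 in cKO in cluster 3, at 1013 and 1699 in cluster 7, and at 334 and 723 in cluster 14. The log2 ratios were 1.36 (1.29 to 1.43), 0.75 (0.71 to 0.78) and 1.12 (1.03 to 1.2). In these clusters 7.51%, 1.88% and 2.42% of all measured genes were at least 1.5-fold higher in cKO. Without the highest cell of each library the ratios were 1.15, 0.75 and 1.11. In the other 7 epithelial-like clusters Saa1 was at or below 107 CPM in both libraries, and none of them passed 1.5-fold. The level in T cell-like cells, 53.6 in WT and 38.9 in cKO, differed in the opposite direction. Neutrophil markers summed to 49.1 CPM in WT and 123 in cKO epithelial-like cells, with 7 of 8 higher in cKO and none at 0, and mitochondrially encoded transcripts to 53377 and 62319. Their part in the Saa1 difference was not tested.

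Dmbt1 was higher in cKO in clusters 3 (2451 and 3765 CPM, log2 ratio 0.62) and 7 (1954 and 2569, 0.39) and level in cluster 14 (2699 and 2611, -0.05). It was also 142 and 318 in cluster 12, where 1 cKO cell held 374 of 913 UMIs. Duox2 stood at 687 and 811 in cluster 3 and at 298 and 306 in cluster 7. In the stem-type cluster 1 it was lower in cKO, at 20.6 and 14, close to the level of 19.3 and 23.0 in T and B cell-like cells.

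Reg3b and Reg3g differences rested on single cells in several clusters. In cluster 3, Reg3b stood at 56.8 CPM in WT and 423 in cKO, but 464 of the 792 cKO UMIs came from 1 cell, and without the highest cell of each library the levels were 40.6 and 183. In cluster 4, a mitotic cluster, Reg3b stood at 39.7 and 116, and without those cells at 28.3 and 40.9. Most of the Reg3b difference in cluster 4, and part of it in cluster 3, lay in those cells. In clusters 7 and 14 Reg3b was lower in cKO (299 and 219, and 395 and 334), and without those cells it was not (161 and 166, and 218 and 285). Reg3g in cluster 12 went from 762 in WT and 1013 in cKO to 636 and 443, so that its direction turned. In cluster 4, Reg3g kept its direction, at 58.4 and 116 with and 49.1 and 102 without them. Over all epithelial-like cells, removing those cells took the log2 ratio of Reg3b from 0.39 to 0.52 and that of Reg3g from 0.21 to 0.03.

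Lcn2 was higher in cKO in its main clusters and lower in some others. The log2 ratio was 0.40 (0.36 to 0.43) in cluster 1 and 0.43 (0.38 to 0.49) in cluster 2, from the levels given above. In the mitotic cluster 4 it was lower in cKO, at 50.3 and 29.9, and in the stem-type cluster 8 as well, at 158 and 92.6. The mitotic cluster 19 (100 WT and 69 cKO cells) had the largest ratio of the 10, at 82.6 and 283 from 41 and 97 UMIs, and stood at 73.1 and 165 without the highest cell of each library. In cluster 7 Lcn2 was low, at 12.5 and 28.9, and neutrophil markers summed to 51.2 and 209 CPM there, with 7 of 8 higher in cKO. Their part in that value was not tested.

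Outside the epithelium, Saa3 and Hp differed by several fold in macrophage and monocyte-like cells (270 WT and 329 cKO cells). Saa3 stood at 25 CPM in WT and 318 in cKO, a log2 ratio of 3.66 (3.35 to 4), and Hp at 34.5 and 316, a log2 ratio of 3.19 (2.92 to 3.48). Lcn2 stood at 20.3 and 63.6, Saa1 at 29.7 and 70.1 and Dmbt1 at 76.3 and 121. These 5 of the 8 members measured there were at least 1.5-fold higher in cKO and none was lower, beside 5.49% higher and 7.56% lower among all 8650 genes measured in that class.

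The 5 did not stand on the same footing. Saa3 was carried by 21 of 270 WT and 46 of 329 cKO cells. Few cells thus made up its level. A single cKO cell held 383 of 1418 UMIs, and without the highest cell of each library Saa3 stood at 18.3 and 232. Hp was more widely spread, in 40 WT and 106 cKO cells, and without those cells stood at 31.0 and 289. The tenth of cells with most Hp held 88.9% of its UMIs in WT and 80.9% in cKO. At 3000 UMIs Hp was seen in 6.90% and 30.3% of these cells, and in 0.426% and 0.585% of T cell-like cells. Saa1 and Dmbt1 were high together in 1 cKO cell, with 95 and 70 UMIs. Without the highest cells Saa1 stood at 28.8 and 49.0, and Dmbt1 at 75.1 and 104, which is under 1.5-fold. In cKO T and B cell-like cells the same 2 genes stood at 42.8 and 132.

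Sex and neutrophil RNA were measured beside these values. In macrophage and monocyte-like cells assigned female, Saa3 stood at 66.9 and 172 and Hp at 59.8 and 252 (62 WT and 44 cKO cells). In those assigned male, Saa3 stood at 2.64 and 400 and Hp at 26.4 and 396 (80 and 164 cells). Both genes were higher in cKO in both sexes. Saa1, at 22.3 and 24.1 in female cells and 28.3 and 83.9 in male cells, was under 1.5-fold in female cells, and so was Dmbt1, at 63.8 and 63.3. The neutrophil markers of the class summed to 631 CPM in WT and 535 in cKO, with 4 of 8 higher in cKO. Among the 202 WT and 223 cKO cells with fewer than 5 UMIs of neutrophil markers, Saa3 stood at 25.1 and 232 and Hp at 41.7 and 355.

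In neutrophil-like cells (220 WT and 387 cKO), Lcn2 stood at 869 CPM in WT and 2190 in cKO, a log2 ratio of 1.33 (1.22 to 1.45). Hp stood at 486 and 840, a log2 ratio of 0.79 (0.64 to 0.94). Lcn2 and Hp are both made by neutrophils and stored in their granules. At 3000 UMIs, Lcn2 was seen in 47.9% of WT and 70.6% of cKO neutrophil-like cells, and Hp in 53.7% and 67.8%. Both genes were thus found in more cells as well as at a higher level. Of 9 members measured in the class, 5 were at least 1.5-fold higher in cKO and 1, Reg3g, lower, beside 4.76% higher and 27.5% lower among all 7353 measured genes, whose median log2 ratio was -0.28.

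The other 3 higher members in neutrophil-like cells were Saa3, Saa1 and Duox2. Saa3 stood at 4.36 and 122 CPM, with 129 of its 232 cKO UMIs in 1 of 16 cells, and at 2.19 and 54.5 without the highest cells. Saa1 stood at 88.3 and 141, with 130 of 269 cKO UMIs in 1 cell that also held 125 of Dmbt1 and 19 of Duox2. Without the highest cells Saa1 was 85.4 and 73.5, and Duox2 26.3 and 37.0. Reg3g, at 29.4 and 14.7, rested on 27 and 28 UMIs.

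**Figure D5:**
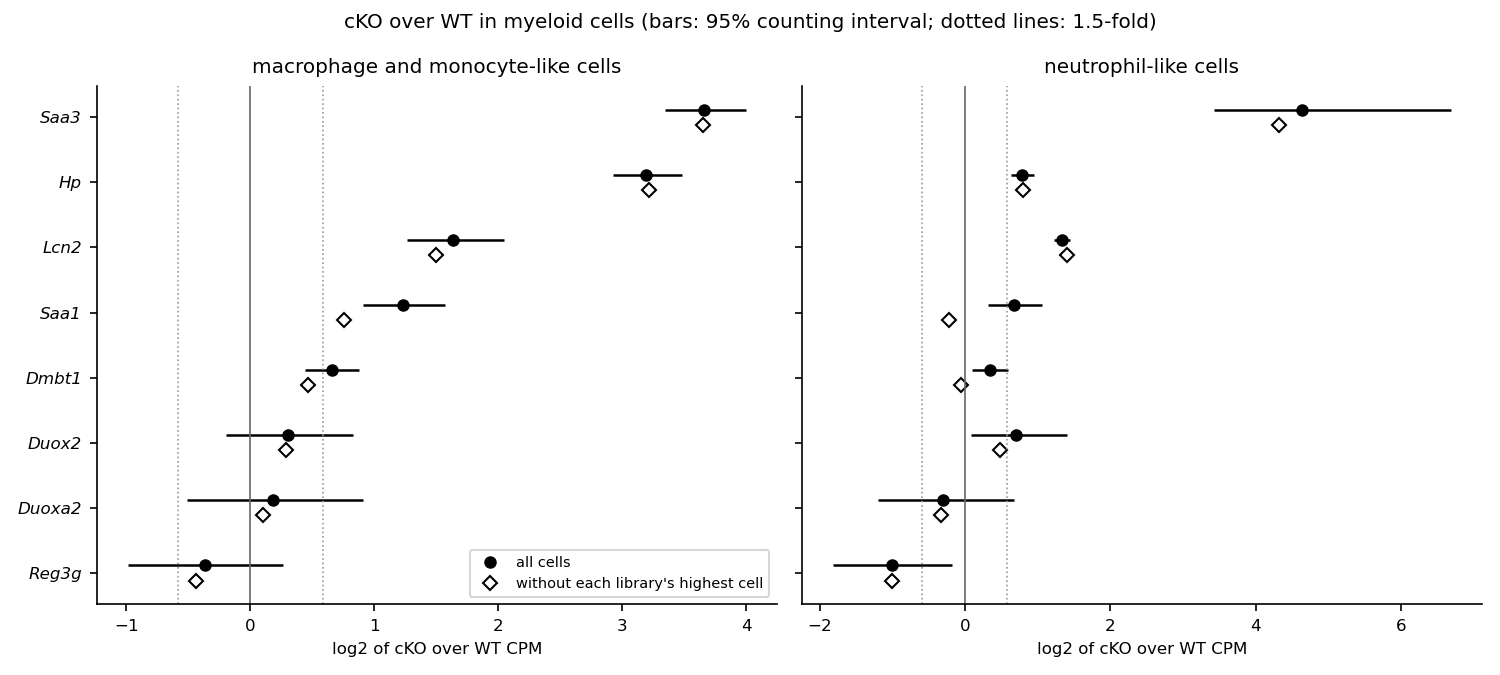
Log2 of cKO over WT CPM (horizontal axis) for 8 genes in macrophage and monocyte-like cells (left) and neutrophil-like cells (right): filled circles all cells with 95% counting intervals, open diamonds all cells less the highest cell of each library, dotted lines 1.5-fold. Saa3, Hp and Lcn2 stay right of the 1.5-fold line in both classes, and Saa1 in neutrophil-like cells changes side, from 0.67 to -0.22.

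T cell-like cells (239 WT and 348 cKO) had no member at least 1.5-fold higher in cKO and 1 lower, Duoxa2 at 15.4 and 10.1 CPM from 31 and 30 UMIs, beside 4.8% higher and 6.05% lower among all 9026 measured genes.

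Fibroblast-like and endothelial-like cells were too few to compare (142 WT and 82 cKO, 51 and 55 cells) and are described by their levels. Saa3 stood at 711 and 733 CPM in fibroblast-like cells and Hp at 324 and 352. In WT a single cell held 702 of 809 Saa3 UMIs and 341 of 369 Hp UMIs. In cKO the highest cell held 120 of 649 and 116 of 312. In each library the highest cell for Saa3 was also the highest for Hp. Reg3b and Reg3g in cKO fibroblast-like cells, 116 and 178 CPM, came almost wholly from 1 cell with 97 and 151 of their 103 and 158 UMIs. Lcn2 in endothelial-like cells stood at 330 in WT and 1091 in cKO. Most of it lay in a small cluster with lymphatic genes (Lyve1, Mmrn1 and Ccl21a), with 98 UMIs in 10 WT cells and 457 in 21 cKO cells.

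Among the kept cells of each library, the epithelial-like cells held 92.9% of WT and 94.9% of cKO Saa1 UMIs, against 86.2% and 79.6% of all UMIs. For Lcn2 the epithelial share was 90.9% and 76.3%, and neutrophil-like cells held 18.4% of cKO Lcn2 UMIs. For Saa3, fibroblast-like cells held 72.4% in WT and 26.9% in cKO, and macrophage and monocyte-like cells 7.6% and 58.8%. For Hp, neutrophil-like cells held 41.0% and 46.1%, fibroblast-like cells 33.9% and 9.0%, and macrophage and monocyte-like cells 10.7% and 40.6%. A single WT fibroblast-like cell weighed on these shares. Without the fibroblast-like cell highest in Saa3 in each library, a comparison added after seeing the data, that class held 25.8% (WT) and 23.1% (cKO) of Saa3 and 3.74% and 5.84% of Hp. Macrophage and monocyte-like cells then held 20.5% and 61.9% of Saa3 and 15.6% and 42% of Hp. How many cells of each class a library holds, and how much RNA each gave, both enter these shares.

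Other genes of the same programme were counted from fixed lists in epithelial-like cells. Of 33 other inducible epithelial defence genes, 25 were measured, 16 higher and 9 lower in cKO, with 5 at least 1.5-fold higher and none lower. The 5 were Retnlb, a goblet cell bactericidal protein (6.88 and 34.2 CPM, log2 ratio 2.31), S100a9 (17.9 and 58.1, 1.70), S100a8 (18.8 and 46.4, 1.30), Tgm2, a transglutaminase (15.8 and 32.9, 1.06), and Muc1, a membrane mucin (7.50 and 12.9, 0.78). S100a8 and S100a9 are also neutrophil markers. The largest lower ratios were those of Mmp7 (411 and 289, -0.51), Zc3h12a (59.7 and 49.0, -0.28) and Ccl20 (16.3 and 13.4, -0.28). The list's median log2 ratio was 0.11.

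The other lists differed less. Of 12 other regenerating, serum amyloid and oxidase family genes, 5 were measured. Reg4, a secreted lectin of goblet and enteroendocrine cells, was lower in cKO (233 and 85.5 CPM, log2 ratio -1.45). It is among the leading genes of cluster 12, whose share of the epithelial-like cells was 6.6% in WT and 3.7% in cKO. The part of that share in its ratio was not tested. Nox1, Noxa1, Noxo1 and Cyba, parts of another epithelial oxidase, had log2 ratios from -0.04 to 0.16. A list of 22 other acute-phase genes held mainly plasma protein genes but also the metallothionein genes Mt1 and Mt2 and the receptor gene Il6ra. Of the 22, 6 were measured, 1 higher (Mt1, 0.27) and 5 lower. Mt2 (-0.58), Il6ra (-0.36) and Cfb (-0.12) were the lowest, followed by Hamp (-0.12) and Cp (-0.05), and none was past 1.5-fold. Il6ra is counted again among the cytokine receptors. Of 21 cytokine receptors, 16 were measured, 5 higher and 11 lower, led by Ifngr1 (0.27), Tlr4 (0.20) and Tnfrsf1b (0.09) upward and Il1r1 (-0.41), Il6ra (-0.36) and Lifr (-0.32) downward. Of 23 signal transducers and transcription factors, 22 were measured, 6 higher and 16 lower, with Socs3, a feedback inhibitor induced by STAT3 (0.57), Myd88 (0.21) and Cebpa (0.20) the highest and Nfkb1 (-0.46) and Nfkb2 (-0.34) among the lowest. Of 18 inducing cytokines, 16 were found in the files and 6 were measured in epithelial-like cells, with Il1b (0.35), Il18 (0.14) and Il33 (0.01) higher and Il23a (-0.21), Tnf (-0.20) and Lif (-0.11) lower.

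The inducing cytokines differed more in macrophage and monocyte-like cells, where 10 of 18 were measured, 8 higher and 2 lower in cKO. At least 1.5-fold higher were Il6 (12.4 and 140 CPM, log2 ratio 3.48), Lif (21.2 and 79.5, 1.90), Il23a (37.7 and 113, 1.58), Tnf (281 and 702, 1.32), Osm (143 and 281, 0.97) and Il1a (537 and 1018, 0.92), and Il33 was lower (17.7 and 4.26, -2.03). The list's median log2 ratio was 0.95, beside -0.05 over all genes measured in the class. In neutrophil-like cells 8 were measured, 7 higher and 1 lower in cKO. Only Il6 was past 1.5-fold there, and it was lower in cKO (85.0 and 38.3 CPM, -1.15). In T cell-like cells 8 were measured. Il17f (18.4 and 35.9) and Il1b (8.94 and 16.9) were at least 1.5-fold higher, and Csf2 (73.0 and 16.9), Ifng (120 and 59.5) and Il17a (213 and 121) lower. Il22, a main inducer of the Reg3 genes, stood at 132 and 94.0, with 266 and 278 UMIs. A further cluster of Il17a-rich cells, left unnamed, held Il22 at 509 CPM in WT (208 UMIs) and 59.2 in cKO (26 UMIs), and Il17a at 1496 and 1980. With 49 WT and 50 cKO cells it fell short of the 50 per library required for a comparison. The part of single cells in these levels was not tested.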

How the data were processed

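The deposited files hold UMI counts per gene and barcode for 2 libraries, which the authors made with Cell Ranger (version 7.2.0 per the file headers) on mm10, per the submitters' processing notes, which also name Seurat 3.0. The counts were used as deposited. Barcodes with under 500 genes or over 25% mitochondrial UMIs were dropped, and the highest Scrublet scores (0.8% per 1000 barcodes) were removed as doublets. Cells were clustered with scanpy 1.11.5 (2000 variable genes, 30 components, 20 neighbours, Leiden resolution 1) without the 10 genes, Mtch2, sex-linked and immune receptor genes. Clusters took a class name where that class's markers lay at least 2 above the mean of the clusters on the log2 scale and 1.5 above the next class, or were named epithelial-like above the midpoint of the epithelial score; this rule was set after seeing the clusters. Sex was assigned per cell from Xist against Y-linked genes. Counts were added up over the cells of a class in each library and divided by their total UMIs (CPM, per 1000000). Intervals are exact Poisson for levels, exact conditional binomial for ratios (0.5 counts added) and Clopper-Pearson for shares, and the ratio script was tested on simulated data. A gene was measured at 10 CPM in either library, and called at 1.5-fold. A class was compared with at least 100 cells per library, and a cluster with at least 50. The promoter windows come from RefSeq, and gene positions from GENCODE M21, matched for all 10 gene IDs.

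All 10 members are named in every class. Of each other list, the 3 largest ratios each way and any gene past 1.5-fold are named, except 1 that is not reported here, and 3 genes most like each measured member. The members and lists were chosen with earlier results of these data known. Genes or cells singled out for resting on 1 cell were chosen after their values were seen. Coordinates that bear on no result are not given, and the alternatives tried are in the closing section.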

Additional observations from a re-analysis of the deposited data

Results flagged for a closer look

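In epithelial-like cells, 5 genes had opposite differences in cells assigned female and male, and no test of the difference between the sexes was made. The log2 ratio of cKO over WT in female cells was 1.13 for Reg3b, 1.37 for Reg3g, -0.86 for Lcn2, -0.12 for Duox2 and -0.14 for Duoxa2. In male cells it was -0.32, -0.17, 0.34, 0.19 and 0.23. The female cKO group held 324 cells, the smallest of the 4. The part of single cells in these ratios was not tested.

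Reg3g was higher in cKO in epithelial-like cells, with a log2 ratio of 0.21, and lower in neutrophil-like cells, with -1.0 from 27 and 28 UMIs. Saa1 was higher in cKO in epithelial-like cells, with 0.86, and lower in T cell-like cells, with -0.46 from 108 and 115 UMIs. These differences between cell classes were not tested.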

How the results depend on the processing

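No paired analysis was possible because each genotype has 1 library and the labels carry no replicate numbers, and leaving out a replicate was not possible for the same reason. In epithelial-like cells 17 alternatives were tried, 14 planned and 3 chosen after seeing the data. The log2 ratio of Saa1 stayed positive in all of them, from 0.20 (cells assigned female) to 1.54 (per-cell marker gate), as did that of Dmbt1, from 0.34 to 0.63. The count of members at least 1.5-fold higher in cKO was 1, and 2 with the mean of per-cell values, with thinning to 3000 UMIs, in female cells or without the shallow clusters, and 4 with the per-cell marker gate; the count lower was 0, and 1 with the gate and in female cells. The gate kept 3096 WT and 784 cKO cells, of which 975 and 506 lay in epithelial-like clusters. In T cell-like cells the count higher was 0, and 1 with thinning and 2 in female cells; the count lower was 1, and 4 with all barcodes, 3 in female cells and 0 with thinning or without the highest cells. In macrophage and monocyte-like cells the count higher was 5, and 4 without the highest cells and 3 in female cells, and the count lower was 0, and 1 with thinning. In neutrophil-like cells the count higher was 5, and 3 with all barcodes, with thinning or without the highest cells; the count lower was 1, and 2 with all barcodes or in male cells and 0 with thinning. Among differences past 1.5-fold, directions turned for Dmbt1 in female macrophage and monocyte-like cells (-0.00895), Saa1 in neutrophil-like cells without the highest cells (-0.22) and Duox2 in neutrophil-like cells with all barcodes (-0.14) or in female cells (-1.37). Among smaller ones they turned under at least 1 alternative for Reg3b, Reg3g, Lcn2 (to -1.03 with the gate), Duox2 and Duoxa2 in epithelial-like cells, Reg3b, Lcn2 and Duox2 in T cell-like cells, Reg3g, Duox2 and Duoxa2 in macrophage and monocyte-like cells, and Reg3b, Dmbt1 and Duoxa2 in neutrophil-like cells. The causes were not tested. Saa3, Hp and Lcn2 kept a positive log2 ratio under every alternative in both myeloid classes, with lowest values of 1.36, 2.07 and 1.48 in macrophage and monocyte-like cells and 2.69, 0.53 and 1.33 in neutrophil-like cells. In the epithelium Saa2, Saa3 and Hp rest on 41 to 114 UMIs per library.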
